A study of Mus musculus with 12 samples.

Results

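Bone marrow cells of wild-type mice given self-assembled nanoparticles of Cornus officinalis (the cornus group) were compared with bone marrow cells of untreated wild-type mice (the control group), gene by gene, to describe where the marrow of the treated group differed from untreated marrow. The comparison used the read counts of all genes in the 4 cornus and the 4 control libraries, 8 of the 12 libraries of the series. The other 4 libraries, the model group, came from wild-type mice treated with CTX as a model of chemotherapy-induced myelosuppression, and are set beside the comparison where they bear on it. Cornus officinalis is a dogwood whose fruit is used in traditional Chinese medicine. The labels name Cornus officinalis as the only treatment of the cornus group and do not say whether these mice also received CTX, and they give no dose, time point, sex or age. The series calls the libraries biological replicates, but nothing ties each library to a separate animal, and the p-values therefore reflect only how these libraries varied, which may be technical.

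Bone marrow makes blood cells of all kinds. Stem and progenitor cells give rise to red cells, platelet-forming megakaryocytes, the granule-bearing neutrophils, eosinophils and basophils, monocytes, and the precursors of B cells. In bulk RNA from such a mixture, fewer cells of a type and less RNA per cell cannot be told apart. As fits marrow, Cybb, a subunit of the phagocyte oxidase, was abundant in every control and cornus library. It lay at 1911, 1877, 1856 and 785 CPM (read counts scaled for library depth with TMM factors) in controls 1 to 4. In cornus 1 to 4 it lay at 4184, 3367, 4643 and 3458 CPM.

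Libraries held between 13902122 and 19139771 counts. Controls 1, 2 and 3 were nearly the same library: a chi-square of their counts over its degrees of freedom was 1.72 to 1.92 for the 3 pairs, against 12.9 to 147 for the other 15 pairs within a group. They were therefore also summed and counted as 1 sample, and a gene is said below to have risen or fallen only if its adjusted p was under 0.05 both with 4 controls and with controls 1 to 3 summed. SEs and adjusted p below are from the fit with 4 controls unless stated otherwise. That fit counts controls 1 to 3 as separate samples and can overstate precision. Control 4 stood apart from them, with 9.80% of its counts in hemoglobin genes against 2.45% to 2.49%, and the median gene differed by 0.353 on the log2 scale between control 4 and the mean of the other controls, against a median SD of 0.189 among the cornus libraries. With so few independent controls the comparison leans on control 4: summed controls 1 to 3 alone against the 4 cornus libraries gave 629 higher and 425 lower genes.

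Of 12549 genes tested, 2331 (18.6%) rose and 2476 (19.7%) fell in cornus against control in both fits. The fit with 4 controls alone called 3013 higher and 2959 lower, and the fit with summed controls called 2370 and 2572. Changes larger than 1 on the log2 scale were fewer: a test against that size, passed in both fits, left 47 genes higher and 123 lower. At the other end, 6528 genes (52.0%) had 95% intervals that lay within 1 log2 unit of no change in both fits. Groups that did not overlap at all, with every cornus value above or below every control value, were found for 24.2% of genes on the high side and 24.4% on the low side. The median log2 change over all genes tested was -0.02, and shares and medians of gene lists below are to be read against these values.

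Gene length moved with the comparison. Among the 273 genes of up to 1000 bases, 4.76% rose and 44.3% fell, whereas among the 4053 genes over 6000 bases 36.1% rose and 8.81% fell. The median log2 difference of the cornus libraries ran from -0.42 in the shortest class to 0.21 in the longest against controls 1 to 3, and from -0.82 to 0.38 against control 4. Control 4 minus controls 1 to 3 ran the other way, from 0.38 to -0.12, and model minus control ran from -0.39 to 0.24. When each library's trend on length was removed with an offset, 1704 genes were higher and 1911 lower in both fits, and 2959 of the 4807 genes called before (61.6%) were called again in the same direction. All 24 of the largest rises and falls described below were among them. List counts with the length trend removed are to be read against the 1704 higher and 1911 lower of 12549 tested genes. The part of gene length in the differences was not tested beyond these values.

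**Figure D1:**
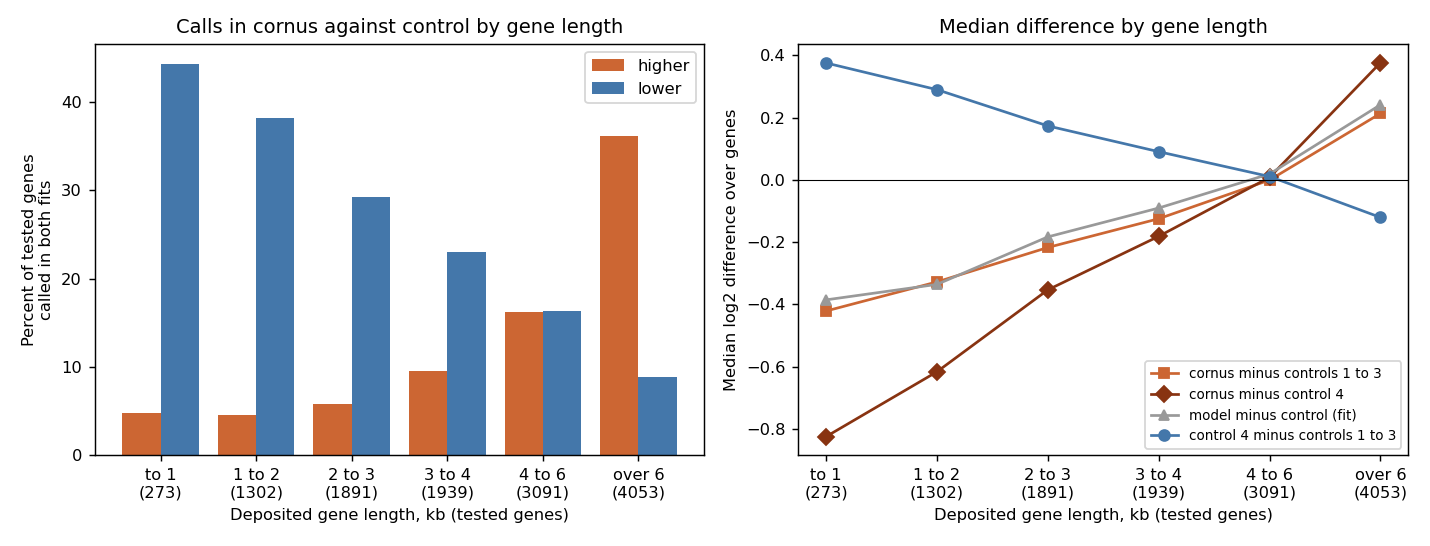
Left, percent of tested genes called higher or lower in cornus against control in both fits, by deposited gene length in kb. Right, median log2 difference over the genes of each length class for 4 differences between libraries. The share of lower genes falls from 44.3% to 8.81% and the share of higher genes rises from 4.76% to 36.1% from the shortest to the longest class.

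The B lineage list showed one of the deepest losses. B cells arise in the marrow from progenitors that rearrange their immunoglobulin genes with the Rag recombinase, and the list held genes from that stage to the mature B cell. Of its 23 tested genes 21 fell and none rose, the median log2 change was -4.03, and no value of any of the 23 overlapped between the groups. The list's median level lay at -6.66, -4.29, -4.64 and -3.56 on the log2 scale in cornus 1 to 4 and at -0.53, -0.57, -0.57 and 0.53 in controls 1 to 4, with cornus 1 the lowest.

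Ms4a1, which encodes the B cell surface protein CD20, counted 83.5, 78.3, 75.0 and 102 CPM in controls 1 to 4 and 0, 0, 0 and 0.155 in cornus 1 to 4. Its summed counts were 5268 in control and 3 in cornus, a ratio of 1708 scaled for depth (95% exact binomial interval 584 to 8286, counting error only). Fcmr, the Fc receptor for IgM, had 2359 counts in control and 3 in cornus, a ratio of 765 (interval 261 to 3712). For both genes the few cornus counts came from cornus 4 alone, and every other cornus library was at 0.

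Fcer2a, the low-affinity IgE receptor CD23 of mature B cells, fell by 6.99 ± 0.53 (SE; adjusted p = 1.34e-05). With controls 1 to 3 summed its SE was 0.62 and its adjusted p 0.000397. Cd22, an inhibitory co-receptor, stood at 40.4, 32.7, 38.5 and 67.9 CPM in controls and 0.929, 2.45, 1.89 and 4.14 in cornus. Genes of the signalling complex and of B cell identity fell alongside, with log2 changes of -4.72 for Cd79a and -4.03 for Pax5, the factor that commits cells to the lineage. Smaller changes were measured for the recombinase gene Rag1 (-2.61) and for Vpreb1 (-2.56), a surrogate light chain of precursor B cells. Igll1 and Dntt were the 2 members that did not pass in both fits, at log2 values of -2.10 and -1.58. Control 4 carried more B lineage RNA than controls 1 to 3 (median difference 1.05), and 13 of the 23 genes were called lower against summed controls 1 to 3 alone. With the length trend removed 18 were lower.

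Eosinophil genes fell further still. Eosinophils are granulocytes that depend on interleukin 5 and carry basic granule proteins. Of the list's 10 tested genes 9 fell, and the median log2 change was -5.01. The same number, 9, was called against summed controls 1 to 3 alone, against control 4 alone, without any one cornus library and with the length trend removed.

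Alox15, a lipid-oxidising enzyme abundant in these cells, counted 244, 254, 249.8 and 239 CPM in controls and 0.387, 1.22, 1.08 and 1.24 in cornus. Ear1, an eosinophil ribonuclease, counted 302, 307, 287 and 369.5 CPM in controls and 0.619, 2.16, 2.36 and 1.502 in cornus. Every cornus library lay far below every control for both genes, and the log2 changes were -7.93 ± 0.33 and -7.56 ± 0.48 (SE). Ear2, another member of this ribonuclease family, fell by 5.12 and Prg2, the major basic protein gene, by 5.22. Reads of the near-identical Ear genes could be split between copies by the counting.

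The receptor genes followed the granule genes. Il5ra, the interleukin 5 receptor subunit, counted 9.86, 10.6, 10.9 and 10.6 CPM in controls and 0.619, 0.863, 0.337 and 0.622 in cornus. Ccr3, the eotaxin receptor, stood at 25.2, 27.1, 24.0 and 30.9 CPM in controls and 3.56, 3.17, 1.28 and 3.68 in cornus, with cornus 3 below the other 3 cornus libraries. Siglecf was the member that did not pass, at a log2 value of -0.11. The summed level of the list was 4402 to 6026 CPM in control and 122 to 184 CPM in cornus.

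Basophil and mast cell genes were lower too. Of 10 tested genes 8 fell, and 7 with the length trend removed, with a median log2 change of -1.96. Mcpt8, a basophil protease, counted 225, 212, 210.3 and 168 CPM in controls and 11.2, 23.5, 20.5 and 27.7 in cornus. Prss34, another basophil protease, fell by 3.90 ± 0.44 (SE), and Ms4a2, the beta chain of the high-affinity IgE receptor, by 1.70 ± 0.21. Gata2, a transcription factor shared by stem cells and this lineage, fell by 1.98 ± 0.30. These genes were not higher in control 4 (median difference from controls 1 to 3 of -0.42), and 6 of the 10 were called lower against either control sample alone.

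**Figure D2:**
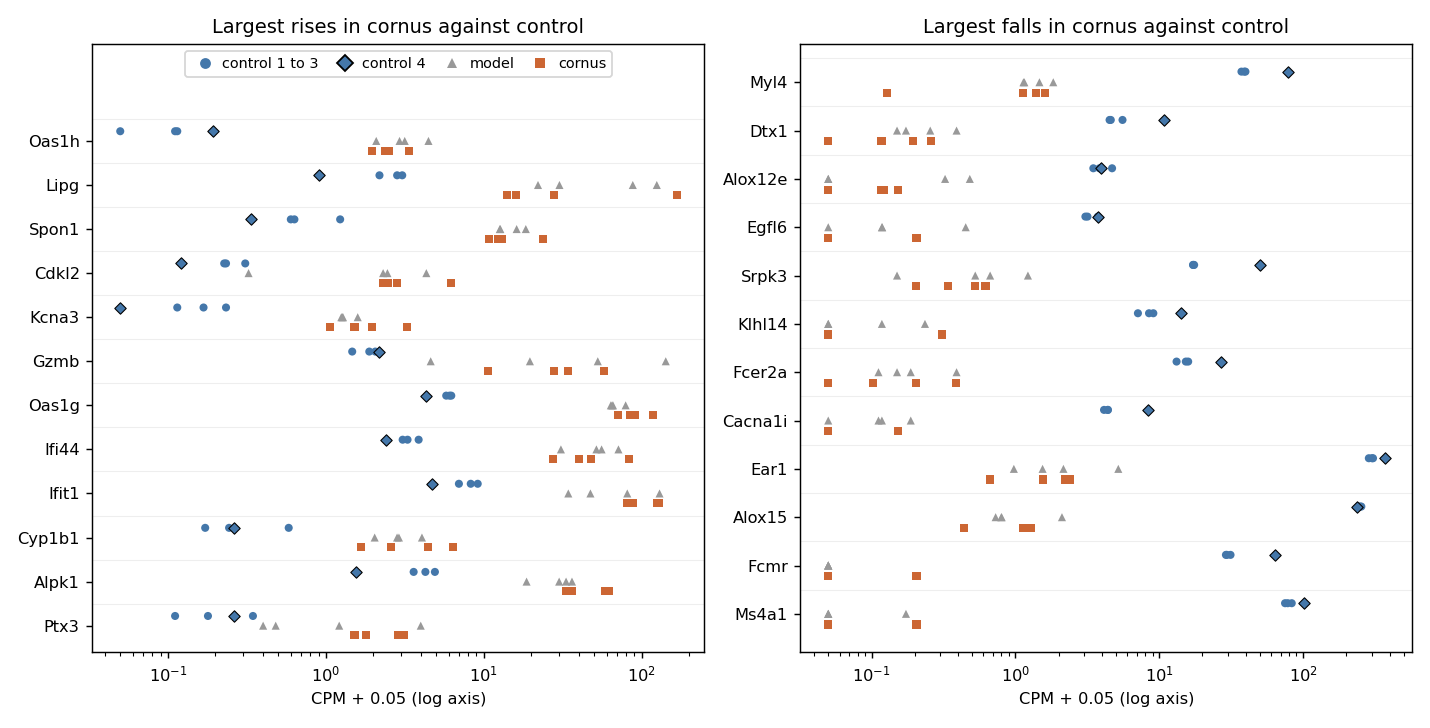
CPM plus 0.05 on a log axis for the 12 largest rises and the 12 largest falls in cornus against control, one point per library. The genes were chosen for having no overlap between control and cornus, and the points show how far the libraries of each group spread.

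T and NK cell genes were mixed in direction. Of 25 tested genes 10 fell and 1 rose, with a median of -0.94, and 6 were lower and 2 higher with the length trend removed. Against summed controls 1 to 3 alone 4 were lower and against control 4 alone 7. Cd3e, part of the T cell receptor complex, counted 1.72, 2.37, 2.27 and 2.35 CPM in controls and 0.0774, 0.0719, 0.202 and 0.155 in cornus. Cd3g fell by 3.06 ± 0.42 (SE) and Ccl5, a chemokine of T and NK cells, by 3.77 ± 0.63. Cd3e and Ccl5 were low in control as well. The list's summed level was 285 to 330 CPM in control and 247 to 472 CPM in cornus.

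Gzmb, the cytotoxic protease granzyme B, was the member that rose. It counted 1.84, 1.42, 2.01 and 2.14 CPM in controls and 10.5, 57.6, 33.9 and 27.8 in cornus, a log2 change of 4.13 ± 0.92 (SE) with an adjusted p of 0.00373. With controls 1 to 3 summed its SE was 1.31 and its adjusted p 0.0329. The cornus values varied widely, yet the lowest, in cornus 1, lay above the highest control. It was not called against either control sample alone, nor with summed controls without cornus 2 or without cornus 3. In the model group Gzmb stood at 19.6, 52.7, 142 and 4.57 CPM.

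MHC class II molecules are the route by which B cells, dendritic cells and macrophages show peptides to helper T cells, and genes of this route were lower. Of 10 tested genes 6 fell and none rose, with a median of -1.82, and the same count held with the length trend removed. Cd74, the invariant chain, counted 175, 178, 180.1 and 358 CPM in controls and 32.5, 29.1, 23.4 and 34.5 in cornus. H2-Aa, a class II alpha chain, fell by 2.35 ± 0.40 (SE) and H2-Ob, a chain of a class II peptide-loading regulator, by 3.30 ± 0.55. No cornus library reached the lowest control for these 3 genes. Against summed controls 1 to 3 alone 2 of the 10 were called.

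Dendritic cell genes fell in 6 of 15 cases and none rose, with a median of -1.21, and 7 were lower and 1 higher with the length trend removed. Ccr7, the receptor that guides dendritic and lymphoid cells to lymph nodes, counted 11.3, 10.2, 9.07 and 19.5 CPM in controls and 0.0774, 0.216, 0.202 and 0.8288 in cornus. Irf4, a transcription factor of dendritic, B and plasma cells, fell by 3.31 ± 0.39 (SE), and Cd209a, a lectin of dendritic cells, by 1.86 ± 0.32. Of the 8 tested plasma cell genes 4 fell, and with the length trend removed 4 were lower and 1 higher. Jchain, which joins IgM and IgA into polymers, counted 17.8, 21.2, 19.96 and 69.95 CPM in controls and 0.465, 0.576, 0.404 and 1.76 in cornus, with control 4 well above the other controls. Sdc1, the plasma cell marker CD138, fell by 2.34 ± 0.29. Several of these genes are shared with B cells, whose list fell in the same libraries, and the part of each cell type was not tested.

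Genes stimulated by interferon rose in all 4 cornus libraries. Type I interferon acts through the JAK kinases and a complex of STAT proteins with IRF9, which binds the interferon-stimulated response element in target promoters and switches on antiviral genes. Of 37 tested genes 32 rose and none fell, against 18.6% of all genes. The median log2 change was 1.67, and the list's median level lay at 1.76, 1.92, 1.99 and 1.64 in cornus 1 to 4 and at 0.31, 0.34, 0.35 and -0.34 in controls 1 to 4.

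The 3 members with the smallest unadjusted p act against viral RNA. Oas1g, an oligoadenylate synthetase, counted 6.18, 5.74, 6.03 and 4.28 CPM in controls and 90.7, 84.0, 118 and 71.2 in cornus, a log2 change of 4.03 ± 0.17 (SE) with an adjusted p of 9.11e-08. With controls 1 to 3 summed its SE was 0.25 and its adjusted p 4.87e-05. Oas1a, a close relative, counted 37.2, 41.1, 43.9 and 25.3 CPM in controls and 159, 154, 179 and 139 in cornus. Eif2ak2, the kinase PKR that is activated by double-stranded RNA, counted 67.1, 69.0, 71.8 and 54.4 CPM in controls and 196, 226, 225 and 188 in cornus. For these 3 genes every cornus library lay well above every control. Oas1 genes are near-identical copies, and the counting could split their reads.

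Among the rest, Ifi44 rose by 3.99 ± 0.37 and Ifit1, which binds foreign RNA 5′ ends, by 3.86 ± 0.40 (SE). Ifih1, the RNA sensor MDA5, rose by 2.18, Zbp1, a sensor of Z-form nucleic acid, by 2.67, and Irf7, the regulator that amplifies type I interferon, by 1.83. Stat2 rose by 1.14 and Irf9 by 0.51. The 5 remaining members did not pass in both fits, among them Bst2, Ifi35, Rsad2 and Isg15, with log2 values of 0.39, 0.27, 0.44 and 1.64. Controls 1 to 3 lay above control 4 for this list (median difference of control 4 of -0.68). Against summed controls 1 to 3 alone 18 of the 37 were called higher, and against control 4 alone 32. With the length trend removed 34 were higher.

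The promoters of these 3 members are shown to place the response element relative to the gene start. Each is RefSeq sequence of build GRCm38.p6, 250 bases before to 50 after the start, on the minus strand of chr5:120887564-120887863 for Oas1g, chr5:120907476-120907775 for Oas1a and chr17:78882523-78882822 for Eif2ak2. Capitals mark matches to the motif GAAANNGAAA, the core of the response element, searched on both strands.
Oas1g: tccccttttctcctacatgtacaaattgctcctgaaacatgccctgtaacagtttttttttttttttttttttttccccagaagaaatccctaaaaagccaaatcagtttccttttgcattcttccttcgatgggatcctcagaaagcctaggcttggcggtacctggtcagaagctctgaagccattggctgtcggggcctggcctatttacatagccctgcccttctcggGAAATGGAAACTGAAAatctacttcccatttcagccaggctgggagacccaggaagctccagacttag
Oas1a: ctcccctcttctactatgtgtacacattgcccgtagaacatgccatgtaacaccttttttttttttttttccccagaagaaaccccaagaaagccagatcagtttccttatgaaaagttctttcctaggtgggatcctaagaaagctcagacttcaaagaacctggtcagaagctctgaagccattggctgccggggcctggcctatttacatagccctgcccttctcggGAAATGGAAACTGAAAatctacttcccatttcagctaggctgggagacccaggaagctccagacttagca
Eif2ak2: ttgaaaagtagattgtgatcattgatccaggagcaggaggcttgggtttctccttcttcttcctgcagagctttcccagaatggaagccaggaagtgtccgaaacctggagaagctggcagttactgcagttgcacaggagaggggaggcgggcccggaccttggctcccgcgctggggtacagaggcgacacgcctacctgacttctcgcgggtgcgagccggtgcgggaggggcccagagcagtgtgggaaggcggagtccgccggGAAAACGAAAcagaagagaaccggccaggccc
The Oas1g and Oas1a windows each held 2 overlapping matches close to the start, and the Eif2ak2 window held 1. A match was found in 12 of the 23 called genes of the list that the promoter table held, in 3 of its 4 matched members that were not called, and in 4.02% of the 10015 tested genes in the table. Over all 32851 windows the share was 3.44%. A match describes the letters in the window and was not tested as a binding site.

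The interferon-inducible GTPases, which attack vacuoles of intracellular microbes and respond most to interferon gamma, gave 3 rises of 18 tested genes and no fall, and 2 rises with the length trend removed. Their share of rises lay below the 18.6% of all genes. Yet 13 of the 18 had every cornus value above every control value, against 24.2% of all genes. Gvin1 counted 0.918, 1.89, 1.69 and 0.713 CPM in controls and 4.96, 19.6, 6.26 and 10.2 in cornus. Gbp10 rose by 3.34 ± 0.77 and Irgm1 by 1.34 ± 0.35 (SE), the latter not passing with the length trend removed. Of the 18 values 17 were above 0, with a median of 1.43, and 15 of the 18 did not pass in both fits. Cxcl10, a chemokine induced by interferon gamma, counted 1.72, 1.48, 2.20 and 0.499 CPM in controls and 7.43, 7.63, 7.34 and 6.79 in cornus. Of 14 MHC class I presentation genes 1 rose, Erap1, the peptide-trimming aminopeptidase, by 1.12 ± 0.16, and all 14 values were above 0 with a median of 0.18. With the length trend removed 2 of the 14 were higher.

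**Figure D3:**
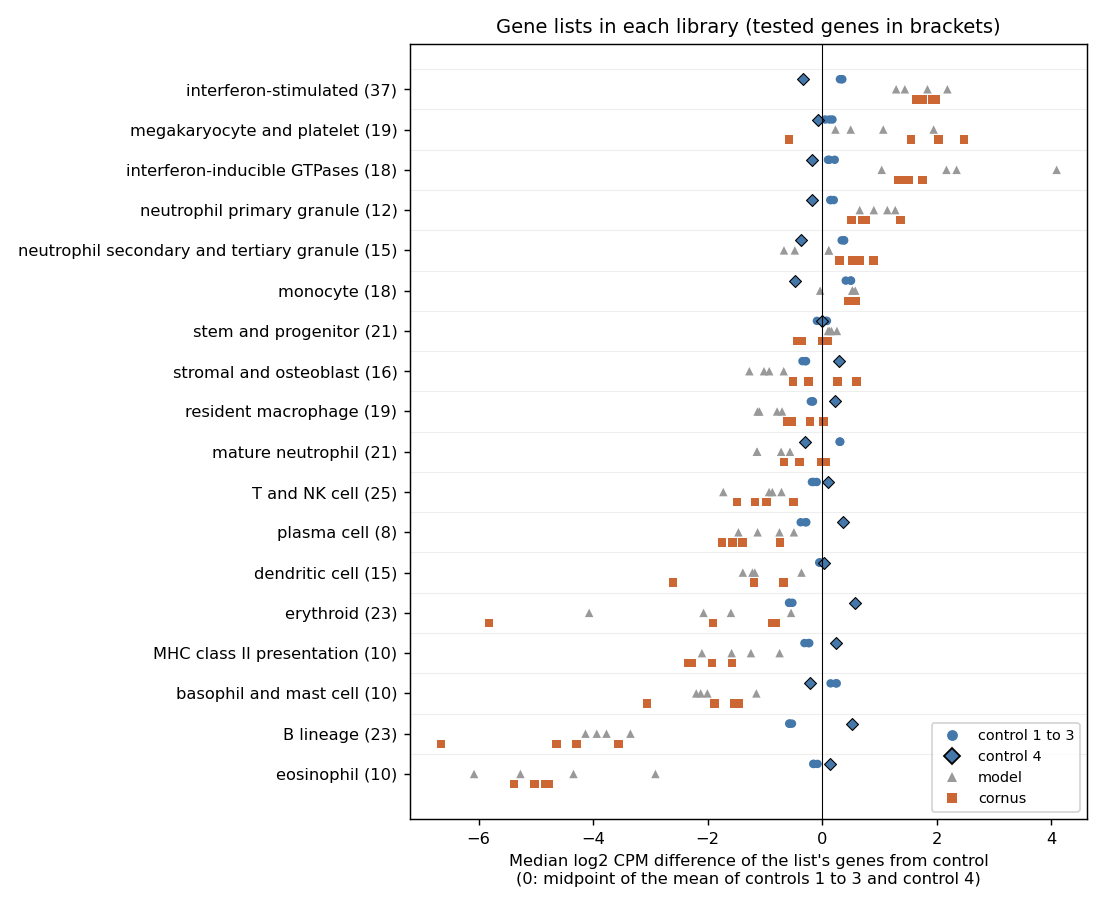
Median log2 CPM difference of 18 gene lists from control in each of the 12 libraries, with the number of tested genes in brackets and 0 at the midpoint of controls 1 to 3 and control 4. Cornus libraries lie between 1.64 and 1.99 for interferon-stimulated genes and between -6.66 and -3.56 for B lineage genes.

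Neutrophils fill their primary granules with proteases at the promyelocyte stage and their secondary and tertiary granules later. Of 12 primary granule genes 7 rose and none fell, with a median of 0.79, and all 12 rose with the length trend removed. Ctsg, the protease cathepsin G, counted 323, 335, 317 and 230.2 CPM in controls and 1002, 585, 571 and 478 in cornus. Ms4a3, a marker of granulocyte and monocyte progenitors, rose by 0.96 ± 0.23 (SE) and Gfi1, a transcription factor that drives granulocyte formation, by 0.85 ± 0.20. Elane, Mpo and Prtn3, the genes of the best known primary granule enzymes, had log2 values of 0.75, 0.62 and 0.83 without passing in both fits. None of the 12 was called against summed controls 1 to 3 alone.

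Secondary and tertiary granule genes gave 3 rises of 15, near the 18.6% of all genes, with a median of 0.47. In 9 of the 15 every cornus value lay above every control value, against 24.2% of all genes. Cybb rose by 1.28 ± 0.25 (SE), Itgb2l by 0.92 ± 0.28 and Ltb4r1, a leukotriene B4 receptor, by 0.52 ± 0.18. Ltf and Ngp, the lactoferrin and neutrophilic granule protein genes, had log2 values of 0.54 and 0.54, short of the threshold. Control 4 was lower than controls 1 to 3 for this list by a median of 0.75, and 1 of the 15 was called against summed controls 1 to 3 alone. With summed controls the count was also 1 without cornus 1 and without cornus 3, and Itgb2l (without cornus 3) and Ltb4r1 (without cornus 1 or cornus 3) lost the call in the fit with 4 controls.

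Genes of mature neutrophils went both ways, 2 of 21 rising and 5 falling, with a median of -0.46, and 4 were higher and 3 lower with the length trend removed. Clec4d, a C-type lectin receptor, counted 74.4, 73.3, 77.1 and 58.4 CPM in controls and 6.27, 3.02, 4.31 and 5.18 in cornus. Il1b, the cytokine interleukin 1 beta, counted 39.9, 40.6, 43.9 and 54.0 CPM in controls and 3.25, 1.73, 1.15 and 1.66 in cornus. Ccl6, a chemokine of myeloid cells, fell by 2.92 ± 0.28 (SE). For these 3 genes every cornus library lay far below the lowest control. Slfn4, a myeloid gene that also responds to interferon, rose by 2.04 ± 0.37. Csf3r, the receptor for granulocyte colony-stimulating factor, fell by 0.82 ± 0.17, but the groups overlapped and the call was lost with the length trend removed. With summed controls the count of lower genes was 3 without cornus 4, and against control 4 alone the list's median was 0.28.

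Monocyte genes rose in 4 of 18 cases, near the 18.6% of all genes, and none fell, with a median of 0.25. The groups did not overlap for 7 of the 18 on the high side and 1 on the low side. The shares of all genes were 24.2% and 24.4%. Ccr2, the receptor that lets monocytes leave the marrow, counted 399, 401, 399 and 122 CPM in controls and 592, 633, 643 and 682 in cornus. F13a1, a coagulation factor subunit, rose by 0.96 ± 0.24 (SE) and Spn, the sialoglycoprotein CD43, by 0.49 ± 0.09. Control 4 lay far below the other controls for Ccr2 and for the list (median difference -0.93), 10 of the 18 were called against control 4 alone, and 1 against summed controls 1 to 3 alone.

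Red cell genes were lower in value but mostly below the threshold. Hemoglobin genes took 2.49%, 2.47%, 2.45% and 9.80% of counts in controls 1 to 4 and 0.0218%, 1.57%, 0.448% and 1.40% in cornus 1 to 4. The groups did not overlap, and the difference of means was -3.44 percentage points, with a two-sided exact permutation p of 0.0286, the smallest that 4 against 4 allows. With controls 1 to 3 counted as 1 sample the exact permutation p was 0.133, again the smallest that 4 against 2 allows. Cornus 1 held far less hemoglobin RNA than the other cornus and control libraries. Model 1 was the lowest of the model libraries, at 0.0249%.

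All 23 erythroid genes had values below 0, with a median of -1.30. Of these 2 fell in both fits, a share below the 19.7% of all genes. In 15 of the 23 every cornus value lay below every control value, against 24.4% of all genes. Car1, a carbonic anhydrase of red cells, was 1 of the 2 that fell. It counted 164, 174, 170.1 and 204 CPM in controls and 9.29, 26.0, 27.9 and 41.5 in cornus. Hba-a2 was the other, at -2.62 ± 0.69 (SE), but its groups overlapped and its copy Hba-a1 can share its reads. Klf1 and Gata1, transcription factors of the lineage, had log2 values of -1.90 and -1.18, and Alas2, the enzyme that starts heme synthesis in red cells, -1.50. Of 19 heme and iron genes 5 fell, and 2 with the length trend removed. Fth1, the ferritin heavy chain, fell by 1.24 ± 0.26. Alas1, the form of the first heme enzyme found in all cells, rose by 0.83 ± 0.21. With summed controls the count of lower heme and iron genes was 3 when cornus 1, 2 or 3 was left out in turn. Erythroid genes were higher in control 4 than in controls 1 to 3 by a median of 1.16.

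Megakaryocyte and platelet genes were higher in 3 of the 4 cornus libraries. The list's median level was 2.03, 2.48, -0.58 and 1.55 in cornus 1 to 4 and 0.13, 0.05, 0.18 and -0.07 in controls 1 to 4, with cornus 3 at or below the controls. Of 19 genes 5 rose in both fits, and 3 with the length trend removed. With other libraries the count varied: 14 were higher with 4 controls alone, and with summed controls 15 were higher without cornus 3, 2 without cornus 1, 2 without cornus 2 and 4 without cornus 4. Ppbp, a platelet chemokine precursor, counted 46.6, 50.1, 47.6 and 29.2 CPM in controls and 319, 423, 31.2 and 214 in cornus. Tubb1, the platelet tubulin, rose by 2.82 ± 0.60 (SE) and Gp1ba, part of the receptor for von Willebrand factor, by 2.43 ± 0.52. Vwf itself rose by 2.19 ± 0.50, a call lost with the length trend removed. For all of these genes cornus 3 lay within or near the control range, so the groups overlapped.

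Of 21 stem and progenitor genes 3 rose and 4 fell, shares below the 18.6% and 19.7% of all genes, and 3 and 5 did with the length trend removed. Erg, a transcription factor of stem cells and megakaryocytes, rose by 0.89 ± 0.14 (SE), and Hlf, a stem cell factor, by 0.69 ± 0.17. Sox4 fell by 1.67 ± 0.29 and Adgrg1 by 0.99 ± 0.30. Mecom, a regulator of stem cell renewal, counted 0.735, 0.947, 0.778 and 0.856 CPM in controls and 0.310, 0.432, 0.269 and 0.363 in cornus, at the low end of what the depth could measure. Kit and Cd34, the usual markers of progenitors, had log2 values of 0.09 and -0.69 and did not pass. With summed controls the falls numbered 2 without cornus 1 and 2 without cornus 3, and the rises 5 without cornus 3. Adgrg1 lost its call without control 4 (-0.75) and without cornus 3 (-0.81).

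Resident macrophage genes gave 1 rise and 3 falls of 19, below the 18.6% and 19.7% of all genes, and 1 and 1 with the length trend removed. Trf, the transferrin gene, fell by 1.05 ± 0.12 (SE), and Adgre1, the macrophage marker F4/80, by 0.52 ± 0.12, the latter not with the length trend removed. Siglec1, a macrophage lectin that interferon induces, counted 9.68, 10.5, 9.27 and 8.20 CPM in controls and 18.97, 20.7, 23.2 and 24.4 in cornus. With summed controls 6 macrophage genes were lower, against 3, 2 and 2 without cornus 1, 2 and 3 in turn. Of 16 stromal and bone-forming genes 2 rose, below the 18.6% of all genes. They were the platelet-derived growth factor receptors Pdgfrb (0.76 ± 0.12) and Pdgfra (1.75 ± 0.48), of which Pdgfrb also held with the length trend removed. Of 17 endothelial genes 3 rose and 1 fell, below the 18.6% and 19.7% of all genes, and 2 and 1 did with the length trend removed. With summed controls 1 rose without cornus 1 and 1 without cornus 2. Flt1, a receptor for vascular endothelial growth factor, counted 5.82, 3.43, 3.24 and 2.35 CPM in controls and 16.6, 12.7, 8.82 and 9.53 in cornus.

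Many genes of protein synthesis and respiration fell in the counts as deposited, and these genes are shorter than most. Of 36 cytosolic ribosomal protein genes 25 fell and none rose, with a median of -0.50. Rpl22 counted 253, 262, 253 and 328 CPM in controls and 205, 171, 174 and 151 in cornus. The list's genes have a median deposited length of 2050 bases against 4486 for all tested genes. With the length trend removed the share of lower genes was below that of all tested genes (1911 of 12549). It was 5 of the 36, with a median of -0.26. None was called against summed controls 1 to 3 alone, and the count with summed controls was 30 without cornus 1 and 12, 13 and 10 without cornus 2, 3 and 4. Processed pseudogenes can share reads with ribosomal protein genes.

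Oxidative phosphorylation genes, which encode the respiratory chain and ATP synthase, fell in 24 of 31 cases and none rose, with a median of -0.54. Cox6c, a subunit of complex IV, counted 113, 103, 99.6 and 145 CPM in controls and 67.8, 57.9, 62.5 and 56.9 in cornus. Ndufa1 of complex I fell by 1.08 ± 0.17 (SE) and Uqcrq of complex III by 0.86 ± 0.15. With the length trend removed 14 of the 31 were lower, and against summed controls 1 to 3 alone 3 were. In glycolysis and hypoxia 4 of 26 rose and 1 fell, below the 18.6% and 19.7% of all genes, and 4 and 0 did with the length trend removed. Vegfa, the endothelial growth factor, counted 37.5, 33.3, 32.6 and 29.3 CPM in controls and 98.7, 78.1, 66.6 and 60.9 in cornus, and Hk2, a hexokinase, rose by 0.78 ± 0.22.

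**Figure D4:**
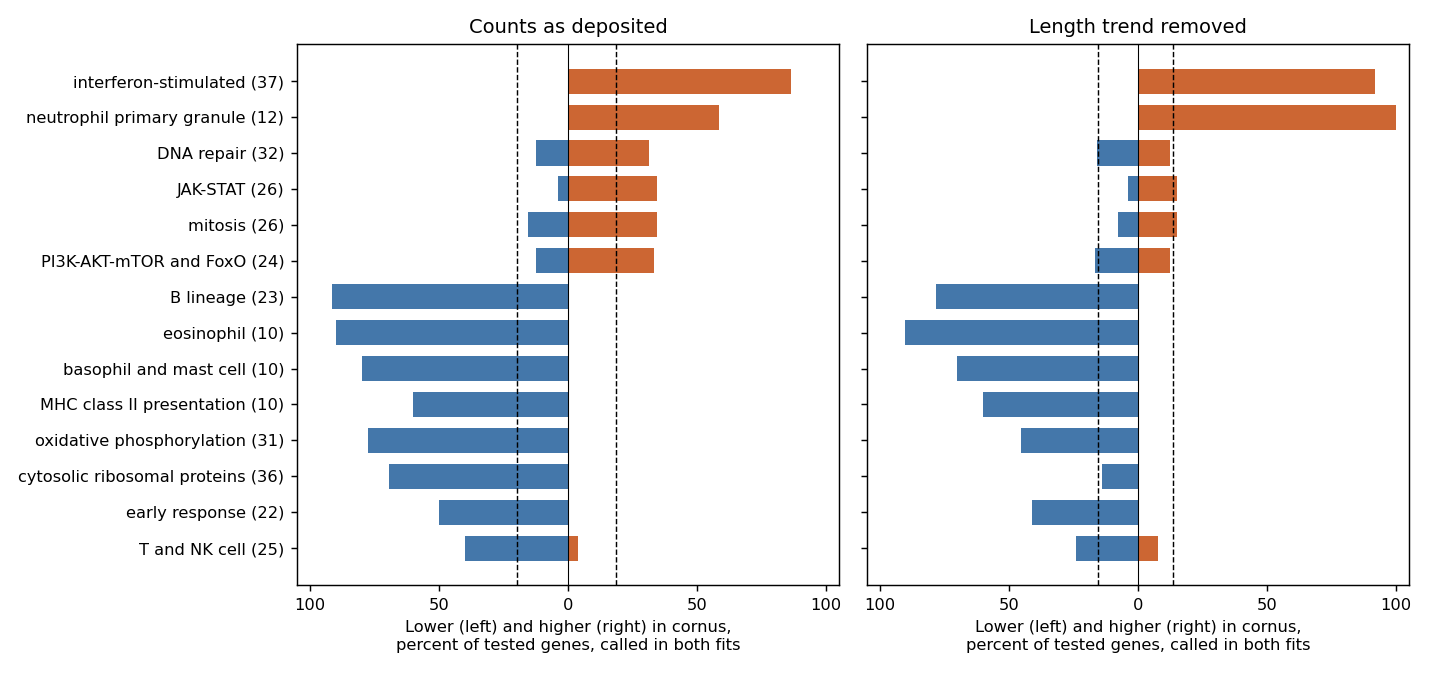
Percent of the tested genes of 14 lists called lower (left of 0) or higher (right of 0) in cornus against control in both fits, from the counts as deposited and with each library's length trend removed. Dashed lines give the share of all tested genes. Interferon-stimulated, B lineage and eosinophil genes stay beyond the line of their own direction in both analyses, while ribosomal protein genes fall from 25 to 5 of 36.

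Counts of mitosis and repair genes changed with the length trend removed. Of 26 mitosis genes 9 rose and 4 fell, and 4 and 2 did so with the length trend removed. Cenpe, a kinetochore motor, counted 126, 120.4, 124 and 127 CPM in controls and 218, 216, 230.5 and 215 in cornus and held in both analyses, whereas Cenpf, a long kinetochore gene, did not. Birc5, the survivin gene, fell by 0.74 ± 0.21 (SE). With summed controls 5 mitosis genes were higher without cornus 3, and the lower ones numbered 2 without cornus 1, 2 or 3. Of 28 S phase genes 1 rose and 4 fell, below the 18.6% and 19.7% of all genes, and with the trend removed none rose and 5 fell. The groups did not overlap for 2 of the 28 on the high side and 11 on the low side. The shares of all genes were 24.2% and 24.4%. Pcna, the sliding clamp gene, fell by 0.62 ± 0.14, a call lost with the trend removed.

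Of 32 DNA repair genes 10 rose and 4 fell, and with the length trend removed 4 rose and 5 fell. Atm, the kinase that signals double-strand breaks, counted 16.3, 17.2, 14.8 and 8.84 CPM in controls and 38.8, 44.6, 38.8 and 40.5 in cornus and held in both analyses. Atr and Brca2 rose by 0.75 and 0.74 before the trend was removed and did not pass after it. Lig4, the ligase of non-homologous end joining, counted 27.1, 30.9, 29.4 and 36.4 CPM in controls and 12.1, 8.20, 12.3 and 12.8 in cornus, and Xrcc6, the Ku70 subunit of the same pathway, fell by 1.35 ± 0.16 (SE). Both of these falls held with the trend removed.

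The p53 target and apoptosis lists moved in both directions. Of 25 p53 targets 5 rose and 4 fell, near the 18.6% and 19.7% of all genes. With the length trend removed 5 rose and 2 fell. With summed controls the rises numbered 3, 1, 3 and 2 without cornus 1, 2, 3 and 4 in turn. Apaf1, which assembles the caspase-activating apoptosome, counted 170.2, 156, 157 and 102 CPM in controls and 319, 265, 290.5 and 257 in cornus. Btg2, an antiproliferative p53 target, fell by 1.26 ± 0.27 (SE). Of 22 apoptosis regulators 7 rose and 4 fell, and with the length trend removed 7 and 1 did. Xiap, a caspase inhibitor, rose by 0.92 ± 0.13, and Bmf, a pro-apoptotic BH3 gene, fell by 1.45 ± 0.20. Cdkn1a, the textbook p53 target, had a log2 value of 0.41 and Trp53inp1 -0.30, neither passing in both fits.

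Among signalling genes, 9 of 26 JAK-STAT genes rose and 1 fell, and with the length trend removed 4 and 1 did. Jak2, the kinase of cytokine receptors, counted 126, 126, 125 and 104 CPM in controls and 181, 195, 181 and 185 in cornus. Tyk2, the kinase of the type I interferon receptor, rose by 0.43 ± 0.09 (SE) without holding after the trend was removed. Of 24 genes of the PI3K, AKT, mTOR and FoxO pathway 8 rose and 3 fell, and 3 and 4 did with the trend removed. Foxo1, a transcription factor needed by B cell precursors, counted 42.7, 40.5, 40.9 and 59.9 CPM in controls and 6.12, 11.4, 9.29 and 17.4 in cornus. Rictor and Mtor rose by 0.81 and 0.48 and did not hold.

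Early response genes, transcribed within minutes of a stimulus, fell in 11 of 22 cases and none rose, with a median of -0.49, and 9 fell with the length trend removed. Dusp2, a phosphatase that ends MAP kinase signals, counted 18.5, 18.9, 19.2 and 49.2 CPM in controls and 2.48, 3.74, 4.51 and 5.34 in cornus. Klf2 fell by 1.35 ± 0.22 (SE), Ier5 by 1.15 ± 0.15 and Egr3 by 2.33 ± 0.41. In each of these genes every cornus library lay below every control.

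Of 24 inflammatory genes 4 rose and 5 fell, near the 18.6% and 19.7% of all genes, and 4 and 6 did with the length trend removed. The groups did not overlap for 5 of the 24 on the high side and 10 on the low side. The shares of all genes were 24.2% and 24.4%. Tlr4, the receptor for bacterial lipopolysaccharide, counted 27.6, 26.8, 27.8 and 7.77 CPM in controls and 65.9, 52.3, 50.8 and 39.8 in cornus. Il1a rose by 2.11 ± 0.45 (SE) while Il1b and Relb fell, the latter by 1.05 ± 0.20. Il1a in cornus 3 lay within the control range. The fit with 4 controls alone called 11 inflammatory genes lower. Of 24 NRF2 and antioxidant genes 4 rose and 7 fell, 3 and 6 did with the length trend removed, and with summed controls 2 rose without cornus 1 and 2 without cornus 3. Gpx1, a glutathione peroxidase, counted 5.39, 6.16, 5.83 and 14.7 CPM in controls and 1.32, 1.80, 2.29 and 1.92 in cornus, and Me1, the malic enzyme, fell by 2.71 ± 0.47. Gstm1, a glutathione transferase, rose by 1.16 ± 0.33 and G6pdx, the first enzyme of the pentose phosphate pathway, by 0.72 ± 0.20.

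Several of the largest changes belonged to none of these lists. Lipg, the endothelial lipase gene, counted 3, 2.78, 2.14 and 0.856 CPM in controls and 166, 27.7, 15.9 and 14.1 in cornus. Spon1, an extracellular matrix protein gene, counted 0.551, 1.18, 0.583 and 0.285 CPM in controls and 10.8, 23.7, 12.9 and 12.3 in cornus. Alpk1, a kinase that senses a bacterial sugar, counted 4.22, 3.55, 4.86 and 1.497 CPM in controls and 33.3, 36.4, 62.4 and 59.0 in cornus. None of the 3 overlapped between the groups, although Lipg was far higher in cornus 1 than in the other cornus libraries.

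Oas1h, another oligoadenylate synthetase gene, had the largest log2 change of the named rises, 5.12 ± 0.49 (SE), from at most 0.143 CPM in any control. Ptx3, a secreted pattern-recognition protein of innate immunity, counted 0.0612, 0.296, 0.130 and 0.214 CPM in controls and 1.47, 2.81, 1.75 and 3.06 in cornus. Cyp1b1, a cytochrome P450 induced by the aryl hydrocarbon receptor, rose by 3.76 ± 0.53, Kcna3, a potassium channel, by 4.22 ± 0.54 and Cdkl2, a kinase gene, by 4.22 ± 0.74. Each of these was below 1 CPM in every control.

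On the falling side, Myl4, a myosin light chain, counted 39.7, 37.3, 39.0 and 78.2 CPM in controls and 0.0774, 1.08, 1.35 and 1.55 in cornus. Srpk3, a kinase of splicing factors, counted 17.4, 17.2, 17.2 and 49.9 CPM in controls and 0.155, 0.288, 0.471 and 0.570 in cornus. Cacna1i, a T-type calcium channel, had 324 counts in control and 2 in cornus, a ratio of 158 (95% exact binomial interval 43.3 to 1307). Egfl6 had 211 and 3 counts, a ratio of 68.4 (interval 23.1 to 334). Dtx1, a regulator of Notch signalling, fell by 5.70 ± 0.54 (SE), Klhl14, a gene active in B cells, by 6.78 ± 0.70 and Alox12e, a lipoxygenase, by 5.76 ± 0.73. Srpk3, Myl4, Dtx1, Klhl14 and Cacna1i were each highest in control 4.

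The model group was compared with the same control libraries, so its values are set beside those of cornus without a measure of likeness. In model against control 17.7% of genes were higher and 15.8% lower in both fits. The median log2 change over each list was -3.71 in model and -4.03 in cornus for B lineage genes, -4.12 and -5.01 for eosinophil genes, and 1.56 and 1.67 for interferon-stimulated genes. It was -0.36 and 0.47 for secondary and tertiary granule genes, -1.01 and -0.18 for resident macrophage genes, -1.03 and 0.08 for stromal genes and 2.75 and 1.43 for the GTPases. Against control 4 alone the cornus medians of these 4 lists were 0.92, -0.61, -0.37 and 1.73, and against summed controls 1 to 3 alone 0.35, -0.08, 0.30 and 1.26. For those last 4 lists no single gene passed the test of cornus against model.

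Over all genes the test of cornus against model called 10 genes higher and 9 lower, 0.151% of those tested, with 2615 at an unadjusted p under 0.05. This count rests on single libraries: it was 0 with controls 1 to 3 summed in the same fit (2310 at an unadjusted p under 0.05), 499 higher and 536 lower without control 4, and 0 without cornus 3, cornus 4, model 1, model 3 or model 4. Without cornus 1 it was 0 and 1, without cornus 2 it was 12 and 16, and without model 2 it was 34 and 29. DESeq2 called 414 higher and 370 lower.

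Of the 19 genes 7 had also moved in the same direction from control. Scd1, the enzyme that makes monounsaturated fatty acids, counted 41.8, 38.4, 39.3 and 68.0 CPM in controls, 4.75, 6.73, 3.40 and 6.83 in model and 1.32, 1.01, 1.75 and 2.02 in cornus, a log2 change of -4.91 ± 0.31 (SE) from control and -1.81 ± 0.30 from model. Its cornus values lay below all others. Mnd1, a meiotic recombination gene, stood at 10.1, 9.65, 8.55 and 12.1 CPM in controls, 8.52, 8.51, 7.96 and 11.6 in model and 4.26, 4.10, 4.51 and 3.63 in cornus, so that control and model were alike in range and cornus lay apart.

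Higher than in both other groups were Ushbp1, Adamts2, Igfbp7, Dnah8 and Itpr2. Ushbp1 counted 2.02, 1.54, 1.69 and 1.28 CPM in controls, 0.988, 0.755, 1.70 and 1.05 in model and 5.26, 4.96, 3.17 and 5.34 in cornus. Igfbp7, a secreted protein of vessels that binds growth factors, counted 1.10, 1.36, 1.62 and 1.71 CPM in controls, 0.926, 1.03, 1.22 and 1.21 in model and 3.48, 3.52, 2.15 and 2.80 in cornus. Adamts2, a procollagen protease, rose from control by 1.41 ± 0.29 (SE). The long genes Dnah8 and Itpr2 rose by 0.64 and 0.41 and did not hold with the length trend removed.

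Ypel3 was the 1 gene that fell from control and lay above model, at 142, 135, 139 and 190.2 CPM in controls, 30.4, 43.8, 32.4 and 35.6 in model and 61.4, 69.0, 57.0 and 64.7 in cornus. The other 11 genes differed from model but did not pass against control in both fits, a choice that by itself favours values near control. Zfp961 and Rrn3 among them had every cornus value below every control. Stab1, a scavenger receptor of sinusoidal vessels and macrophages, counted 8.14, 8.41, 8.17 and 6.06 CPM in controls, 2.35, 2.27, 1.91 and 2.16 in model and 5.88, 5.18, 4.58 and 8.44 in cornus. Taf4b, a subunit of a general transcription factor, counted 7.04, 6.10, 8.04 and 7.84 CPM in controls, 18.2, 16.3, 16.5 and 15.6 in model and 7.74, 10, 7.34 and 8.08 in cornus. In both genes the cornus range met the control range and stood clear of the model.

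**Figure D5:**
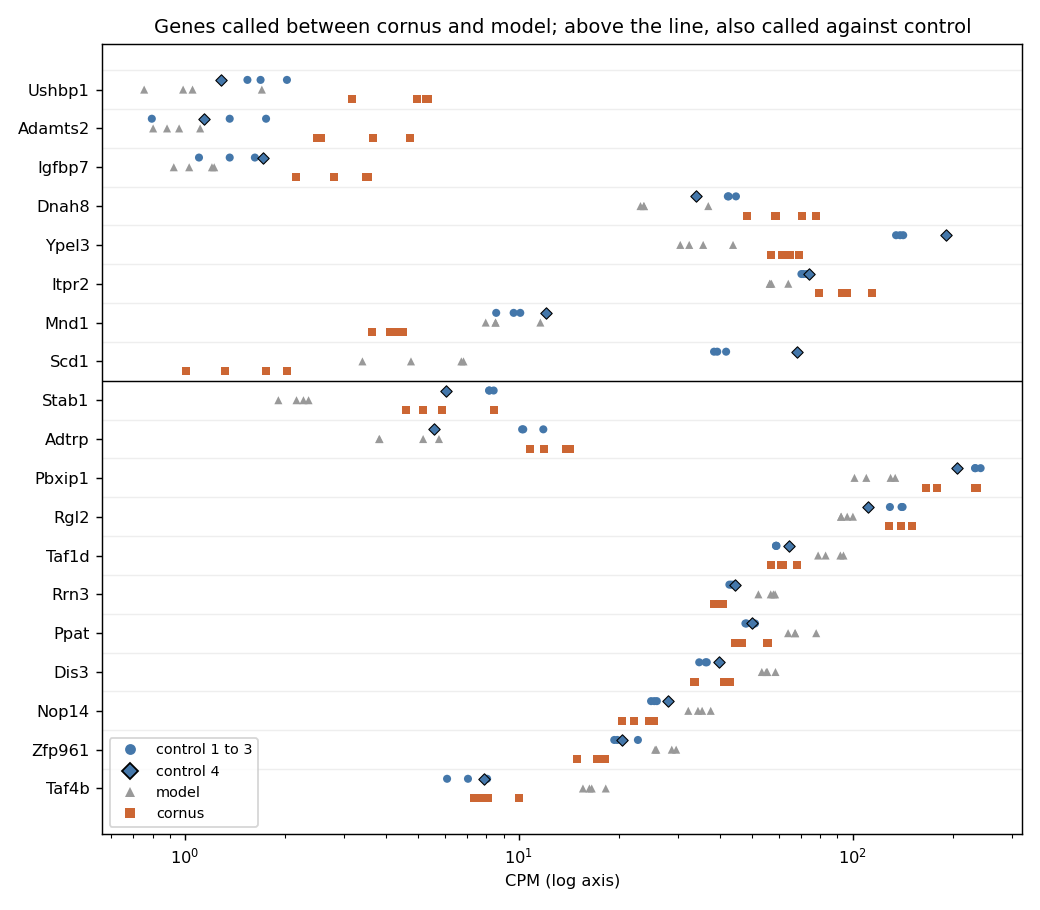
CPM on a log axis of the 19 genes called between cornus and model, one point per library. Genes above the black line were also called against control in both fits. In the 11 genes below it the cornus points lie apart from the model points. These 11 did not pass against control in both fits, which by itself favours cornus points near control. For Zfp961 and Rrn3 every cornus point still lies below every control point.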

How the data were processed

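Poly-A RNA of mouse bone marrow was sequenced in 12 libraries, 4 per group, and grouped by the labelled treatment. The deposited table holds read counts per gene and, beside them, FPKM that the authors computed from those counts and the table's gene lengths. The counts come from fastp 0.22.0, HISAT2 2.1.0 and HTSeq 0.9.1, per the submitters' processing notes, and the genome build and the strand setting are not given in the sources used here. No column of other samples was found in the table (0 columns).

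Counts of 12549 of 21958 genes (filterByExpr) were tested with edgeR 4.0.16 in R 4.3.3, by the quasi-likelihood test with TMM factors, group as the only term, all 12 libraries in 1 fit and Benjamini-Hochberg adjusted p under 0.05, with 4 controls and with controls 1 to 3 summed. Every SE and adjusted p in the text is from this test, with 4 controls unless stated otherwise, and CPM are TMM-scaled. A change over 1 on the log2 scale was tested with glmTreat, and hemoglobin shares with a two-sided exact permutation test of means. Both fits were tested on simulated counts. All controls were drawn there as independent libraries, so the simulation cannot show how the fits behave with near-identical controls 1 to 3. List levels are medians of log2 CPM (prior count 2) relative to the midpoint of controls 1 to 3 and control 4.

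Named genes are the 12 largest rises and 12 largest falls called in both fits, with a mean of at least 1 CPM and no overlap between the groups, and some genes are not reported here. To these were added up to 4 called members of each list per direction by smallest p, the genes called in both comparisons of the cornus group, and the hemoglobin genes. Members named with values that did not pass, Prg2, Stat2 and the other list members outside that rule, and Stab1, Taf4b and Ypel3 were chosen after their values were seen. The gene lists and these rules were chosen with earlier results of these data known.

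Alternatives were DESeq2 1.42.0 (size factors and test), upper-quartile factors, 2 other filters, 8 libraries, a replicate block, limma 3.58.1 on log2(FPKM + 1) for genes with FPKM of at least 1 in 4 libraries, and each library left out. Depth was 13902122 to 19139771 counts, and the intervals printed cover counting error only, since PCR copies were not removed by molecular identifiers. Near-identical genes (Oas1, Ear, Ifit, Gbp, Gvin and hemoglobin copies) are uncertain where reads could be split between them.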

Additional observations from a re-analysis of the deposited data

Results flagged for a closer look

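In 232 sets of 4 cornus values, 14 held a library far from the other 3, by a gap to the nearest of them above the 95% limit of Dixon's test, and chance flags about 1 in 20 groups. Controls were not looked at in this way, since they stand for 2 independent samples. Cornus 4 held the only counts of Ms4a1 (0.155 CPM), Fcmr (0.155 CPM), Egfl6 (0.155 CPM), Cacna1i (0.104 CPM) and Klhl14 (0.259 CPM), where the other 3 cornus libraries were at 0. With 3 values at 0 any single count is flagged, so the chance rate does not apply to these genes. Their flags rest on a few reads in the deepest library (19139771 counts). Cornus 1 was lowest for Alox15 (0.387 CPM against 1.08 to 1.24) and for Myl4 (0.0774 CPM against 1.08 to 1.55).

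Cornus 3 was lowest for Ushbp1 (3.17 CPM against 4.96 to 5.34) and Ccr3 (1.28 CPM against 3.17 to 3.68), and highest for Tgfbr1 (119 CPM against 96.8 to 98.3). The endothelial list also lay lowest in cornus 3, with a median level of -0.61 against 0.20 to 0.36. Cornus 2 was lowest for Lig4 (8.20 CPM against 12.1 to 12.8), Relb (4.68 CPM against 7.10 to 7.41) and Eif4ebp1 (16.8 CPM against 23.1 to 23.8).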

How the results depend on the processing

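Under size factors, filters, DESeq2, 8 libraries, FPKM and the length offset, the counts in cornus against control stayed within 1.5 times those reported, from 2350 to 3258 higher and 2455 to 3447 lower with 4 controls. Leaving out 1 library gave 2639 to 2774 and 2488 to 2747. With controls 1 to 3 summed, leaving out a cornus or control sample gave 629 to 2723 higher and 425 to 2777 lower, the lowest without control 4, where the lone control is assumed to vary like the other groups. Genes changed by over 1 numbered 95 and 191 with 4 controls and 49 and 126 with summed controls. In cornus against model, leaving out a library gave 0 to 499 higher and 0 to 536 lower, summed controls 0, and DESeq2 414 and 370. The replicate block gave 3107 and 3151 genes in cornus against control and 0 in cornus against model (2778 at an unadjusted p under 0.05). Same-numbered control and cornus libraries correlated at 0.19, -0.14, 0.05 and 0.29 in their deviations, so the numbers were not taken as pairs, and not every library correlated best with its own number. Same-numbered model and cornus libraries correlated at 0.45, 0.34, -0.06 and 0.05. An effect shared by libraries of the same number was not tested beyond the replicate block. The hemoglobin difference was -5.28 points with controls 1 to 3 as 1 sample and -3.16 to -1.61 without cornus 1 or control 4, each with p over 0.05 at the smallest the design allows. Of 3454 values of 193 named genes over 18 settings, 76 lost the call, 7 gained it and 2 reversed, Dnah8 (-0.11) and Itpr2 (-0.11), both with the length trend removed. Of 228 list medians 20 moved by more than 1 SD of the cornus libraries. The length offset, the single control samples and the fits of cornus against model without control 4 or with summed controls were added after seeing the data. The cause of these shifts was not tested. The number of independent control samples, 2, limits precision.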

Other observations

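Of 26 growth factor and receptor genes 4 rose and 4 fell, below the shares of all genes, and 4 and 3 did with the length trend removed. Il7r, the receptor subunit for interleukin 7 on lymphoid precursors, counted 80.6, 77.6, 72.4 and 94.7 CPM in controls 1 to 4 and 2.32, 18.8, 14.1 and 35.4 in cornus 1 to 4. Csf2rb, the shared beta chain of the receptors for interleukin 3, interleukin 5 and GM-CSF, counted 254, 246, 267 and 116 CPM in controls and 508, 331, 419 and 340.5 in cornus. Neither gene overlapped between the groups. Il6st, the shared signalling subunit gp130, rose by 0.95 ± 0.19 (SE). The receptors for transforming growth factor beta moved apart: Tgfbr1 rose by 0.68 ± 0.14 and Tgfbr2 fell by 0.72 ± 0.11. The named genes held with the length trend removed.

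Of 7 adipocyte genes 1 rose and 2 fell. Acaca, which makes the building block of fatty acids, counted 29.8, 30.5, 28.4 and 22.6 CPM in controls and 61.6, 64.2, 69.3 and 59.6 in cornus, while Scd1, which desaturates the product, fell. Fabp4, a fatty acid carrier of adipocytes and vessels, fell by 1.18 ± 0.31 (SE). Of 4 skeletal muscle genes 3 fell, 2 with the length trend removed, the list's summed level being 18.6 to 39.1 CPM in control and 6.12 to 9.43 CPM in cornus. Of 7 osteoclast genes 1 fell, Acp5, the acid phosphatase, by 1.25 ± 0.32, and it did not hold with the length trend removed.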
